A study of Mus musculus with 8 samples.

Results

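C2-only regions are stretches of open chromatin that the deposited F-Seq peak lists place in both libraries of the C2 population and in no library of C10, C13 or C18. The 8 F-Seq lists, of 100000 peaks each, were merged into 207739 regions, and a library was counted for a region if any base of it lay under one of its peaks. By this rule 1063 regions, or 0.512% of all regions and 1.57% of the 67901 regions called in both C2 libraries, were C2-only. Because the members were selected on these calls, their presence in C2 and absence elsewhere is a description and was not tested. The name holds for the F-Seq lists alone: in the authors' second set of lists, made with HOMER, 361 of the 1063 had a peak in another population.

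The study sorted subsets of common myeloid progenitors from marrow of C57BL/6 mice, all wild type, and profiled them by ATAC-seq, in which the transposase TDE1 cuts accessible DNA of cells opened with digitonin. C2 cells were KIT+ CD16/32- CD34bright CD41+ CD9+. The other populations were likewise KIT+ and CD16/32- but CD34dim: C10 was CD41+ CD9+ CD48bright, C13 was CD41- CD9-, and C18 was CD41+ CD9+ CD48dim. Each had 2 libraries, and whether these came from separate animals is not given in the labels. The series text uses partly different cluster numbers, so the names here follow the sample titles and the sorted phenotype.

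Regulatory DNA becomes accessible where transcription factors displace nucleosomes. Promoters of widely used genes stay open in many cell types, whereas distal enhancers in introns and between genes are open in fewer. CD34 is carried by early progenitors, and in such cells factors of the RUNX, ETS, GATA and MYB families bind many enhancers and promoters. An enhancer need not act on the nearest gene, so the gene names below give positions and not targets.

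Few C2-only regions lay at gene starts. Of the promoter windows of protein-coding genes, which run from 250 bases before to 50 after a start, 20 windows of 17 genes overlapped one. In 4 of these genes the region also had a HOMER peak in both C2 libraries and in no other library: Gm1110, Slfn1, Csnk1e and Gm1070. Slfn1 belongs to the Schlafen family and is known for restraining T cell growth, and Csnk1e encodes a casein kinase of the circadian clock. Their promoters are shown because both callers place the regions over them in C2 alone. The calls are for whole regions, so a HOMER peak or a peak of each C2 library need not lie in the window. In the Csnk1e region, of 876 bases, the C2 peaks covered 333 and 581 bases, with summits 467 bases apart. The sequences are from RefSeq on GRCm38.p6, the assembly of mm10, 5′ to 3′ on the strand of the gene. They lie at chr9:26923032-26923331 (minus strand) for Gm1110, at chr11:83116570-83116869 (plus strand) for Slfn1, at chr15:79442008-79442307 (minus strand) for 1 of the listed Csnk1e starts and at chr6:71293515-71293814 (plus strand) for Gm1070. Capitals mark letters searched on both strands. These were AGATAA for the factors of the GATA family, and TGTGGT for those of the RUNX family. For ETS factors the letters were CAGGAAGT, for AP-1 proteins they were TGANTCA and for C/EBP proteins they were TTGCNNAA. No match shown here overlapped another.
Gm1110: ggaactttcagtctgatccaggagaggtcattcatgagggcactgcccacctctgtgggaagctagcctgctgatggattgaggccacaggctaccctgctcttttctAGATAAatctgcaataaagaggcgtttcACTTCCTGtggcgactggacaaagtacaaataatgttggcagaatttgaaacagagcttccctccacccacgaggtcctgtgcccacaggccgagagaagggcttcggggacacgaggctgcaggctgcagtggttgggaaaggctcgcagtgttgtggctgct
Slfn1: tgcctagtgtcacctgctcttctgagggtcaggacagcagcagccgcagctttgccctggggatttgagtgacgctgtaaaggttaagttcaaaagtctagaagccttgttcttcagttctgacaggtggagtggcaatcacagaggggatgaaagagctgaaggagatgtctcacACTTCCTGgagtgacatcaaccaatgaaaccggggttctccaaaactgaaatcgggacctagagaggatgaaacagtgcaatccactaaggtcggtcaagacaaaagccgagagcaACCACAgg
Csnk1e: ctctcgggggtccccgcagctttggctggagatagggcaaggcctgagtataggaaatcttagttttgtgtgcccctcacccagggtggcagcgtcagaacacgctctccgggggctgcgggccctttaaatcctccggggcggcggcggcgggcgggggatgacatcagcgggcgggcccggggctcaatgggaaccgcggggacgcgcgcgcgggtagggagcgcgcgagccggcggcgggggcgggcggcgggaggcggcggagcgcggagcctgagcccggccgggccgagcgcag
Gm1070: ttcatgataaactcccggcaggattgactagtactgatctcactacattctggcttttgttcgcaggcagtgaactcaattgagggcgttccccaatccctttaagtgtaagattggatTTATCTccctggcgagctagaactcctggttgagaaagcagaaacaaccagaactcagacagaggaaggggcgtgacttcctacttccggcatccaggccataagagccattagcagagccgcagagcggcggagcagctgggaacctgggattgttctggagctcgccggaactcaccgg

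The Gm1110 window held 1 GATA and 1 ETS match and lay wholly under its region. Slfn1 held 1 ETS match and 1 RUNX match at the end of the window, Gm1070 held 1 GATA match, and the Csnk1e window held none of these letters. Over all 20 windows, the GATA letters were found in 3 (15%), against 9.65% of all 21263 protein-coding promoter windows. The ETS letters were also found in 3 (15%), against 3.24% of all, the C/EBP letters in 4 (20%) against 10.2%, the RUNX letters in 2 (10%) against 15% and the AP-1 letters in 1 (5%) against 6.99%. Each of these shares rests on at most 4 windows, and the 4 Csnk1e windows overlap each other, so they are descriptions. A match of letters is not a bound site.

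These promoters were less CpG-rich than most open promoters. The ratio of observed to expected CpG, which is high in CpG islands, had a median of 0.506 in the 20 windows, against 0.755 in the 12804 windows overlapped by a region called in both C2 libraries and 0.567 over all promoters. A ratio above 0.6 was found in 8 of the 20 (40%), against 70.7% of windows open in both C2 libraries. Windows under regions of the same kind for other populations had lower medians, 0.284 for C10-only (24 windows), 0.284 for C13-only (80 windows) and 0.34 for C18-only (24 windows). The 20 windows, however, count Csnk1e once for each of its overlapping windows, whose ratios were 0.68, 0.996, 1.11 and 1.14. The 0.506 and the 8 windows above 0.6 thus lean on 1 gene. The gap to the other private sets is not read as a difference.

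The lists differed between libraries, and C18 stood apart. Its F-Seq peaks had a median width of 491 and 618 bases in the 2 libraries, against 691 to 800 in the other 6, and its HOMER lists held 72379 and 83548 peaks, against 171712 to 260118. Without both C18 libraries the same rule gave 2360 regions, of which 37% had a HOMER peak in both C2 libraries. Read counts were not part of the lists, so depth is unknown. C2-only regions were likewise sensitive to the C2 libraries, since 14446 regions were called in C2 replicate 1 alone and 8164 in C2 replicate 2 alone.

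C2-only regions were weak. Their median width was 677 bases (quartiles 524 and 884, range 280 to 2485), against 1355 bases for all regions called in both C2 libraries. Merged regions hold every peak in full, and a C2-only region can hold peaks of the 2 C2 libraries alone. Other regions can hold peaks of all 8 libraries, so this gap is in part set by the rule. The C2-only median was close to the 675 bases of all 207739 regions. It was above the 605 of C10-only, 608 of C13-only and 617 of C18-only regions, which are private in the same way. Ranked within its list by the authors' signal, so that 100 is the highest of the library, the median peak of a C2-only region stood at percentile 24.7 in C2 replicate 1 and 19.6 in replicate 2. All regions called in both C2 libraries had medians of 64.7 and 64.8. The upper 50% of a list held 75 of the 1063 (7.06%) in replicate 1 and 44 (4.14%) in replicate 2, and the highest 20% held none in either library. The highest percentile was 76.1 in replicate 1 and 74.4 in replicate 2. C10-only regions were also low, with medians of 22.4 and 16.6 in their own libraries, and C13-only regions had 25.9 and 27.3. C18-only regions stood higher in theirs, at 42 and 49.

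**Figure D1:**
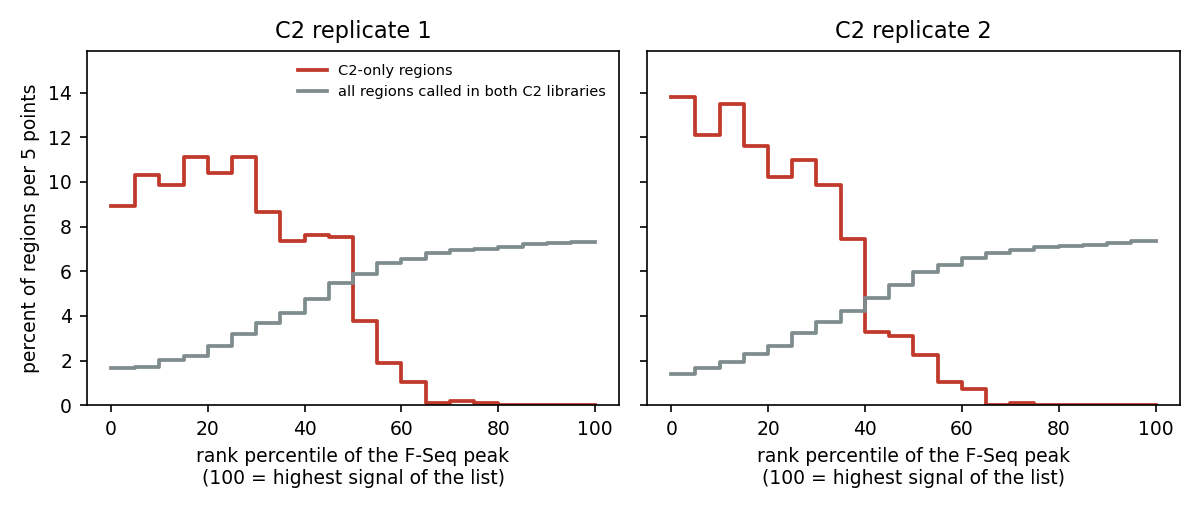
Rank percentile (x axis, 100 is the highest signal of the library) of the F-Seq peak in C2 replicate 1 (left) and C2 replicate 2 (right), as the percent of regions per 5 percentile points (y axis), for C2-only regions (red) and all regions called in both C2 libraries (grey). The C2-only regions lie mainly below percentile 40 and reach 76.1 and 74.4, whereas the share of all regions grows towards the highest ranks.

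The summits of the 2 C2 libraries agreed less well in C2-only regions than elsewhere. The highest points of the peaks were a median of 93 bases apart (quartiles 35 and 225), against 29 bases for all regions called in both C2 libraries, and they were within 100 bases of each other in 552 of 1063 (51.9%), against 81%. The distance was a median of 27 bases in C10-only, 14 in C13-only and 42 in C18-only regions. Nearly all C2-only regions, 1049 of 1063, held a single peak from each C2 library.

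HOMER, run on the same libraries, listed a peak in both C2 libraries for 320 of the 1063 (30.1%, exact 95% binomial interval 27.4 to 33, counting error only), against 84% of all regions called in both C2 libraries. It listed one in exactly 1 C2 library for 306 and in neither for 437. By library, 441 (41.5%) had a HOMER peak in C2 replicate 1 and 505 (47.5%) in replicate 2. These shares were low also beside regions of similar rank. Between percentiles 20 and 40 of the mean rank, 33.5% of 517 C2-only regions had HOMER peaks in both C2 libraries, against 56.5% of 11079 other regions called in both. Between 40 and 60, the shares were 71.4% of 98 and 82.4% of 15974. The other regions were also wider, with median widths of 995 against 713 bases between 20 and 40. Between 40 and 60 the widths were 1118 against 734 bases. A HOMER peak anywhere in a region counts, so rank alone was matched here, and the part of width was not tested. Over all ranks, HOMER peaks in both own libraries were listed for 82.1% of C10-only and 88.8% of C13-only regions. For C18-only regions, whose HOMER lists were the shortest, the share was 9.01%.

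In the other populations, 361 of the 1063 C2-only regions (34%) had a HOMER peak, against 96.7% of all regions called in both C2 libraries. The peaks were in C10 alone for 136, in C13 alone for 65 and in both of these for 156. Only 4 had one in C18, where C18 replicate 1 contributed none and replicate 2 all 4. By library, the counts were 106 and 266 in C10 and 189 and 157 in C13. Both callers together thus left 110 regions (10.3%) with HOMER peaks in both C2 libraries and in no other library, and 405 (38.1%) had no HOMER peak in any library. Listed in both own libraries and no other were 40.4% of C10-only, 48.3% of C13-only and 6.42% of C18-only regions. No HOMER peak at all was found for 2.21% of all regions called in both C2 libraries, 8% of C10-only, 6.48% of C13-only and 55.3% of C18-only regions. The 110 had medians of percentile 30.4 and 28.3 in the 2 C2 libraries, and their summits were a median of 43 bases apart.

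**Figure D2:**
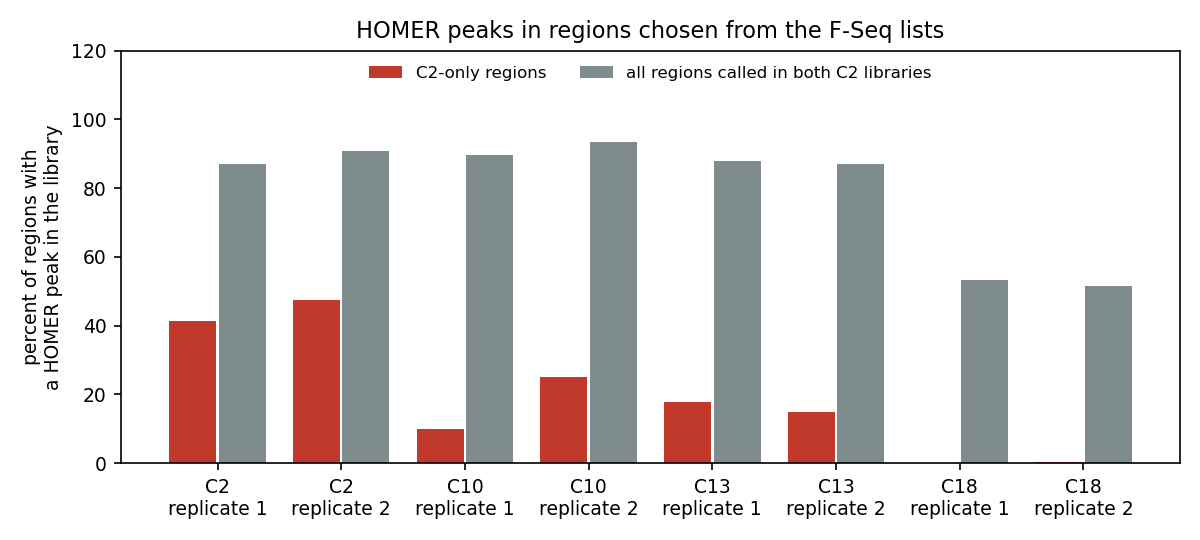
Percent of regions with a HOMER peak (y axis) in each of the 8 libraries (x axis), for C2-only regions (red, 1063) and all regions called in both C2 libraries (grey, 67901). C2-only regions reach 41.5% and 47.5% in C2, between 9.97% and 25% in C10 and C13, and at most 0.376% in C18, while the grey bars are at 86.9% or more outside C18 and at 53.3% and 51.5% within it.

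Most C2-only regions lay away from gene starts, but near genes and near other open chromatin. Of the 1063, 613 (57.7%) overlapped the body of a protein-coding gene and 105 (9.88%) were over 50 kb from any, against 61.5% and 11.3% of all regions called in both C2 libraries. Within 1 kb of either end of a gene were 115 (10.8%), against 21.8%. By both distances to genes, regions private to other populations were farther out than C2-only regions as a whole. Within 1 kb of a gene end, a measure chosen after seeing the data, were 3.9% of C10-only, 4.25% of C13-only and 6.52% of C18-only regions. Over 50 kb from a gene were 23.4%, 20.6% and 17.2% of them. The 320 members with HOMER peaks in both C2 libraries were close to these sets, at 5.625% and 18.12%. The 110 that both callers placed in C2 alone were at 4.545% and 16.36%, and the 437 without a HOMER peak in C2 at 14.4% and 3.89%. Overlap with a gene body was 50.1% in C10-only and 49.3% in C13-only regions, but 57.5% in C18-only and 57.2% in all regions, close to that of C2-only regions. RefSeq promoter windows gave a start for 17492 of 21376 protein-coding genes outside chromosome 18, so a region at another gene's start is not counted as such. By those starts, 39 of 1036 C2-only regions (3.76%) were within 1 kb of one, against 16.7% of all regions called in both C2 libraries, 1.74% of C10-only, 1.69% of C13-only and 1.77% of C18-only regions.

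**Figure D3:**
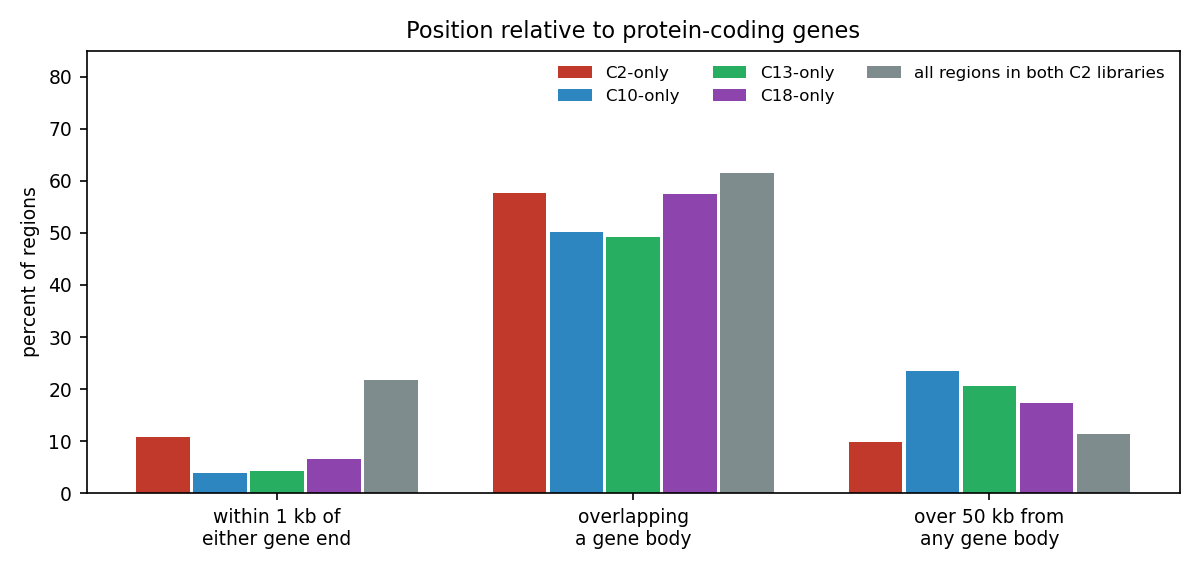
Percent of regions (y axis) within 1 kb of either end of a protein-coding gene, overlapping a gene body, or over 50 kb from any gene body (x axis), for C2-only, C10-only, C13-only and C18-only regions and for all regions called in both C2 libraries. C2-only regions (red) were at 10.8%, 57.7% and 9.88%, with more near gene ends and fewer over 50 kb away than among the regions private to the other populations, and a gene body share close to the 57.5% of C18-only regions. The 320 C2-only regions with HOMER peaks in both C2 libraries, not drawn apart, were at 5.625%, 48.75% and 18.12%.

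A region private to C2 usually stood beside chromatin that was open elsewhere. The nearest F-Seq peak of another population was a median of 1.34 kb away, and it was within 5 kb for 911 of 1063 (85.7%). For C10-only, C13-only and C18-only regions the median was 2.83, 2.47 and 3.56 kb. A region called in all 8 libraries was within 5 kb of 533 C2-only regions (50.1%), at a median of 4.96 kb over all members, against medians of 16.1, 13.5 and 13.4 kb for C10-only, C13-only and C18-only regions. Within 100 kb to each side they had a mean of 3.47 protein-coding genes, against 3.1 for all regions called in both C2 libraries, 1.6 for C10-only, 2.15 for C13-only and 2.94 for C18-only regions. The 437 members without a HOMER peak in C2 were the closest to genes, with 64.8% in a gene body, whereas 48.2% of the 110 that both callers placed in C2 alone were in one.

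The rule has an edge on both sides. An F-Seq peak of another population came within 100 bases of 46 members, the closest at 2 bases, while 62 members had none within 10 kb. Just outside, 1406 regions were called in both C2 libraries and in exactly 1 other library, most often C18 replicate 1 (467 regions) and least often C13 replicate 1 (52). In each of these, at least 247 bases of the merged region lay under the other library's peaks. Merged regions hold every peak in full, so this is not the overlap with a C2 peak, which was not measured.

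The regions were spread unevenly over chromosomes. Chromosome 11 held 96 (9.03% of members), against 6.27% of all regions called in both C2 libraries, and chromosome 4 held 91 (8.56%), against 6.35%. The X chromosome held only 6 (0.564%), against 2.06%. It held 6.09% of C10-only, 3.01% of C13-only and 2.83% of C18-only regions. Over whole F-Seq lists the X chromosome had 1.83% and 1.97% of C2 peaks, 2.53% and 2.59% of C10 peaks, 2.52% and 2.47% of C13 peaks and 1.67% and 1.77% of C18 peaks. The lists thus differ in their X share in the same direction as the private regions for C10 and C13, and the part of this in the result was not tested.

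The C2-only regions of highest rank lay mostly away from starts. The first, chrX:75655793-75656266, stood at percentile 76.1 and 64.8 in C2 replicates 1 and 2, 77.6 kb from Rab39b, which encodes a small GTPase, and HOMER listed it in both C2 libraries and nowhere else. The second, in Trerf1, was at 54.8 and 74.4 and also had a HOMER peak in C10 replicate 2. The third was at 63.7 and 64 and lay 138 kb from Fbxw7, a substrate receptor of a ubiquitin ligase known for restraining stem cell cycling, with HOMER peaks in both C10 libraries. The remaining 7 of the leading 10 were in Sacm1l, Hecw2, Evi5 and Mro and nearest to Fam111a, Pdha2 and Rbbp8. Of the leading 10, HOMER listed 6 in both C2 libraries and in no other, which were those at Rab39b, Fam111a, Hecw2, Mro, Pdha2 and Rbbp8.

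The other 4 of the leading 10 regions that both callers gave to C2 alone were in Flt3, Runx1 and Tlr6 and near Smndc1. In the gene of Flt3, the receptor tyrosine kinase of multipotent and lymphoid-primed progenitors, chr5:147371252-147372344 stood at percentiles 55 and 48 with summits 2 bases apart. In Runx1, chr16:92612343-92612976 stood at 49.6 and 55 with summits 20 bases apart. A region in Tlr6, an innate immune receptor that pairs with TLR2, was at 61.8 and 39.9, and the region 3.55 kb from Smndc1, a splicing factor gene, was at 61.4 and 43.4.

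By locus, a protein-coding gene body with 10 kb on each side, 1014 of 19030 loci that held any region had at least 1 C2-only region (5.33%). Of these, 948 had 1, 59 had 2 and 7 had more. Larger loci held them more often: 1.28% of loci with 1 to 5 regions had one, 6.12% of those with 6 to 20, 15.2% of those with 21 to 50 and 25% of larger ones. Genes with many regions thus appear more often below. Of the members, 254 lay in no locus and 223 in several.

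Runx1 and Gse1 had the most, with 5 each. Runx1 encodes a runt-domain factor without which the embryo makes no blood stem cells, and which later acts in megakaryocytes and lymphocytes. Its locus held 78 regions, of which 42 and 39 were called in C2, 17 and 21 in C10, 17 and 20 in C13 and 28 and 35 in C18. F-Seq peaks covered 48.6 and 47.1 kb of it in C2, 20 and 27.9 kb in C10, 22.8 and 28.1 kb in C13 and 27.5 and 35.9 kb in C18. Both C2 libraries were thus above all 6 others in both measures. With the C2-only regions left out the calls were 37 and 34 in C2, and C18 replicate 2 with 35 overlapped this range, while the C10, C13 and other C18 libraries had 17 to 28.

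Runx1 is transcribed from an upstream and a downstream start, 129 kb apart on chromosome 16. All 5 C2-only regions lay in the gene body, the first of them 96.7 kb after the upstream start. Relative to the downstream start, their midpoints lay 31.7 and 4.69 kb before it and 3.26, 72.3 and 84.7 kb after it. A relation to either start was not tested. The region nearest to the downstream start, chr16:92693672-92694458, was among the weakest of all, at percentiles 3.75 and 1.7, and had no HOMER peak. Of the 5 regions, only that at 84.7 kb, near the end of the gene, was listed by HOMER.

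**Figure D4:**
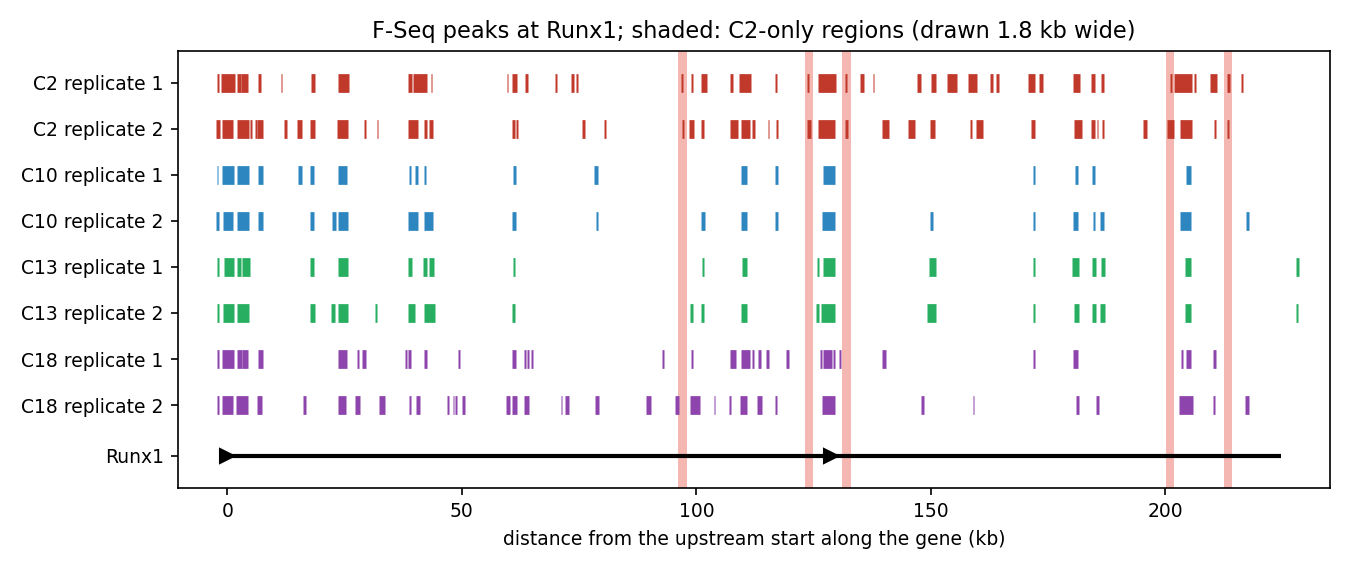
F-Seq peaks (bars) of each of the 8 libraries (rows) along Runx1, by distance in kb from the upstream start in the direction of transcription (x axis), with arrowheads at the upstream and downstream starts and shading, wider than true scale, at the 5 C2-only regions. Both C2 rows hold more peaks than the C10 and C13 rows. By the rule that chose them, the 5 regions hold peaks in both C2 rows and in no other. The wider shading can also touch a neighbouring peak of another row.

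The other leading loci held smaller numbers, often in large genes. Gse1 had 5 among 124 regions, Carmil1, a regulator of actin capping, 4 among 42, and Celf2, an RNA-binding splicing factor, 3 among 86. Celf2 also held 5 C10-only, 6 C13-only and 2 C18-only regions, and Carmil1 held 3 C13-only and 1 C18-only. Nol4l had 3 among 43 and Slc45a1, a sugar transporter, 3 among 17, 1 of which lay in the neighbouring gene Rere. In Gse1, the calls apart from these regions were 67 and 66 in C2, 49 and 49 in C10, 48 and 54 in C13 and 60 and 71 in C18, so C18 overlapped C2. None of the 5 Gse1 regions had a HOMER peak in C2. Smaller loci with 2 each were Trem1, a myeloid receptor that amplifies inflammatory signals, where 1 of them lay in the adjacent Trem3, the actin-like gene Actbl2, Mmp19 and its neighbour Tmem198b, which share both regions, and Sprr2a2. Sprr2a2 has near-identical copies, so the placing of its reads is uncertain. HOMER listed peaks of C10 or C13 in most C2-only regions of Carmil1 and Slc45a1 and in each of those of Actbl2. It did so too in a region of Celf2 and a region of Gse1. At Nol4l, Trem1, Mmp19, Tmem198b and Sprr2a2 it listed none of another population.

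Among haematopoietic transcription factor genes, 8 of 32 loci held a C2-only region (25%, against 5.33% of all loci). This list has a median of 18 regions per locus, against 7 over all loci, and was drawn up with earlier results of these data known. Of the same 32 loci, 5 held a C10-only, 12 a C13-only and 7 a C18-only region, against 1213, 4625 and 2215 of all 19030 loci. The genes with C2-only regions were Runx1, Etv6, Runx2, Lyl1, Ldb1, Myb, Bcl11a and Zeb2, with 14 such regions in their loci. Only 1 of the 14, the last region of Runx1, had a HOMER peak in a C2 library.

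Etv6, an ETS-family repressor needed by marrow stem cells, had 3 of these regions, all in its body. Apart from them, its locus had 51 and 59 called regions in C2, 41 and 44 in C10, 38 and 41 in C13 and 50 and 40 in C18. Both C2 libraries were thus above all others, but C2 replicate 1, with 51, was barely above C18 replicate 1, with 50. Myb, the factor that sustains immature progenitors, had 1 C2-only region, at percentiles 12.9 and 10.4, within its body. Its other called regions numbered 17 and 10 in C2, 5 and 6 in C10, 3 and 4 in C13 and 9 and 5 in C18. Here too C2 was above every other library, with replicate 2 above C18 replicate 1 by a single region.

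At Zeb2, a zinc-finger repressor, the other regions numbered 30 and 21 in C2, 20 and 18 in C10, 11 and 10 in C13 and 19 and 23 in C18, and C18 overlapped C2. Bcl11a, the repressor of fetal globin and a lymphoid factor, had 22 and 23 in C2, 20 and 21 in C10, 21 and 19 in C13 and 23 and 16 in C18. Runx2, known for bone formation, had 26 and 28 in C2, 28 and 28 in C10, 25 and 33 in C13 and 23 and 25 in C18. At both genes C2 overlapped other populations. The region in the locus of Lyl1, a basic helix-loop-helix factor, lay in the body of its neighbour Nfix, and the region of Ldb1, a cofactor of GATA1 and TAL1, lay 83 bases from another population's peak.

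**Figure D5:**
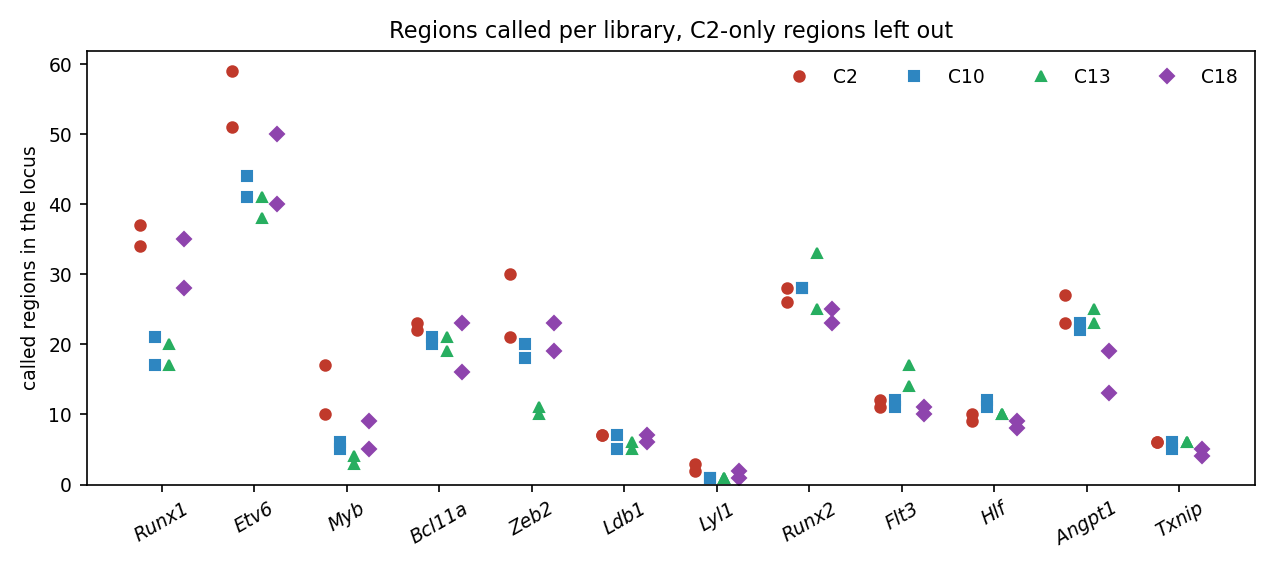
Number of regions called in each library (y axis; 1 point per library, C2 leftmost) with C2-only regions left out, at 12 transcription factor and stem cell loci that hold a C2-only region (x axis). C2 points lie above those of all other libraries at Etv6 and Myb, where the lower C2 point is barely above the higher C18 point. At the other 10 loci they overlap or meet at least 1 other population.

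Over all loci with a C2-only region, both C2 libraries had more other regions than all 6 remaining libraries at 52 of 1014 (5.13%), against 365 of 18016 loci without one (2.03%). Fewer than all 6 were found at 9 (0.888%), against 263 (1.46%). Among loci of 21 to 50 regions the shares with more were 5.63% and 2.28%. At most loci, the regions apart from the C2-only ones thus did not set both C2 libraries above or below all others.

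Stem and multipotent cell genes had 4 of 28 loci with a C2-only region (14.3%, against 5.33% of all loci), each with 1. The list has a median of 10 regions per locus, against 7 over all loci, and 4 of its loci held a C10-only, 13 a C13-only and 4 a C18-only region. Besides Flt3 these were Hlf, a transcription factor of stem cells, Angpt1, a ligand of the TIE2 receptor, and Txnip, a redox regulator. The Angpt1 region was at percentiles 29.5 and 38.7 with HOMER peaks in both C2 libraries, but also in C10 replicate 2 and both C13 libraries. The Hlf region was at 34.9 and 2.18 and the Txnip region, 1.81 kb from the gene, at 13.5 and 1.1, so the C2 libraries differed widely in Hlf. Flt3 had 11 and 12 other regions in C2 and 14 and 17 in C13, so the rest of its locus had no more called regions in C2.

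Lymphocyte genes had 4 of 23 loci with members (17.4%, against 5.33% of all loci), of which Igll1 and Vpreb1 share theirs. Of the same 23 loci, 2 held a C10-only, 9 a C13-only and 1 a C18-only region. Foxp1, a factor of B cell development with 137 regions in its locus, in a size class where 25% of loci hold a member, had 2, of which the one in its body stood at 61.2 and 29.7 with HOMER peaks in both C2 libraries and C10 replicate 2. Notch1, the receptor that directs T cell fate, had 1 at 23.6 and 52.2 without a HOMER peak. Igll1 and Vpreb1, which encode the surrogate light chain of the pre-B cell receptor, have that single region, 1.87 kb from Igll1, at 30.5 and 50.8 with a HOMER peak in 1 C2 library.

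Lists of the mature myeloid fates are read against the 5.33% of all loci with a C2-only region, which in lists of this length is a small number. Of 30 megakaryocyte loci 1 held a C2-only region (3.33%), of 31 erythroid loci 0, of 28 granulocyte and monocyte loci 1 (3.57%), and of 16 mast cell, basophil and eosinophil loci 0. The megakaryocyte gene was Cd9, which encodes the tetraspanin used in the sort and is also the 1 of 7 sort marker loci with a member. Its region had percentiles of 0.916 and 38.7 and a HOMER peak in 1 C2 library, and the other populations, among them the CD9- C13, had other called regions in the locus (8 and 6 in C13). The granulocyte gene was Mmp8, a neutrophil collagenase, whose region lay nearer to Mmp27. The CD34 and CD41 genes, Cd34 and Itga2b, held no C2-only region, and Cd34 had 9 and 8 called regions in C2, 10 and 9 in C10, 10 and 8 in C13 and 7 and 5 in C18.

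Lists of cells outside the gate and of housekeeping genes are set against the same 5.33%. Macrophage and non-haematopoietic genes had 0 of 16 and 0 of 17 loci, and stroma and endothelium 1 of 18 (5.56%), which was Acta2. Housekeeping genes had 2 of 18 (11.1%), Eef2 and Tubb5, each with a region outside the gene body.

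C2-only regions were mostly scattered. Another one was within 50 kb of 169 (15.9%), against 17.1% of C10-only, 53.7% of C13-only and 23% of C18-only regions, sets that are larger. Groups of at least 3 with gaps of up to 50 kb occurred at 9 places. These were at Runx1, at Nol4l, at Rere with Slc45a1, at Plac8 with Cops4, at Sprr2a2 with Sprr2a3, at Ccnl1, at Tnfrsf14, Plch2 and Pank4, at Naglu with its neighbours on chromosome 11, and at Egfl7, Dipk1b and Agpat2. At Plac8, which encodes a small protein abundant in myeloid cells, 1 region covered the promoter, at percentiles 50.9 and 13.6, without a HOMER peak in C2.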

How the data were processed

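ATAC-seq peak lists of 8 libraries were used, 2 from each of 4 populations, grouped by title and sorted phenotype. The submitters' processing notes name Bowtie 1.0.0, HOMER 1.0 and build mm10. For F-Seq, no version is stated in these notes. Each deposited F-Seq list holds 100000 peaks with a signal estimated from read density, and each HOMER list holds 150-base peaks with unlabelled scores, all deposited by the authors. Signal served to rank peaks inside one list, and the score to shorten HOMER lists. Overlapping or touching F-Seq peaks were merged (Python 3.11.15, pandas 2.3.3, numpy 2.4.6), and the merging was tested on simulated peaks. Where no caller is named, peaks are F-Seq peaks. Genes and promoter sequences are from RefSeq, GRCm38.p6. Regions were matched to HOMER peaks by at least 1 base. Named are the 12 loci with the most members, the 10 members of highest mean rank, the 10 highest that both callers place in C2 alone, the 10 highest at protein-coding starts (in part) and each listed gene whose locus holds a member. Members, gene lists and motifs were chosen with earlier results of these data known, and nothing was tested, since the calls that chose the members and the HOMER peaks come from the same reads.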

Additional observations from a re-analysis of the deposited data

How the results depend on the processing

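The set depends strongly on where the lists end. With the 50000 peaks of highest signal per list, 608 regions resulted, of which 89% had HOMER peaks in both C2 libraries and 6.05% were within 1 kb of a start, and they overlapped only 12 of the 1063 members. Of these 608, 90.8% also had a HOMER peak in another population, against 34% of the members, and their median width was 938.5 bases, against 677. With the 20000 highest, the values were 258, 99.6% and 13.2%, with no member shared, 99.6% with a HOMER peak in another population and a median width of 1334 bases. Most regions that stricter lists place in C2 alone were thus listed elsewhere by HOMER. Without merging, 6795 stretches of at least 50 bases gave 5.93% and 11.1%. Asking that peaks cover at least 50% of a region gave 1313 regions with HOMER peaks in both C2 libraries for 41.2%. Leaving out both C18 libraries gave 2360 and 37%. Leaving out members with a HOMER peak in another population gave 702 and 15.7%. HOMER lists alone gave 1163 regions and, limited to 72379 peaks each, 727, within 1.5 times of the main count. This is a likeness in number only, since the overlap of these sets with the members was not measured. Of the members, 110 had HOMER peaks in both C2 libraries and in no other library. With the limited lists, the share of members with HOMER peaks in both C2 libraries was 0.188%. The share at starts was 11.4% within 2500 bases, 5.5% for starts of all genes and, at either gene end, chosen after seeing the data, 10.8%. Loci with a member numbered 589 for gene bodies alone and 2268 with 50 kb on each side.

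Leaving out 1 library gave 1122 to 15756 regions, with HOMER peaks in both (or the remaining) C2 libraries for 23.9% to 40.4% and starts for 2.47% to 4.51%. The highest counts, 9443 and 15756, came without C2 replicate 1 and without C2 replicate 2. Merging peaks up to 200 bases apart kept these 3 results within 1.5 times or within the interval. Asking for 100 bases under peaks left the same 1063 regions. Merged regions hold each peak in full, so that rule could act only on peaks narrower than 100 bases and says nothing on stability. No paired analysis was possible because the results come from no test. Motif shares in whole regions were not run, as only promoter sequences were at hand. Depth is unknown, so the absence of a peak in a list is not the absence of accessibility.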
